A study of Homo sapiens with 12 samples.

Results

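The genes described here are 34 genes of glycolysis and the pentose phosphate pathway, taken by symbol from the 44659 genes of a read count matrix in human A375 cells. They were chosen by what their products do and not by a cut on their counts, with earlier results of these data known. They comprise 2 glucose transporters (SLC2A1 and SLC2A3), the enzymes that take glucose to pyruvate (HK1, HK2, GPI, PFKL, PFKM, PFKP, ALDOA, ALDOC, TPI1, GAPDH, PGK1, PGAM1, ENO1, ENO2 and PKM), the bifunctional regulators PFKFB2, PFKFB3 and PFKFB4, the lactate genes LDHA, LDHB, SLC16A1 and SLC16A3, the pyruvate entry genes PDHA1 and PDK1 to PDK4, the pentose phosphate enzymes PGD, TKT and TALDO1, and the arrestin-like genes TXNIP and ARRDC4.

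A375 is an established human melanoma line driven by mutant BRAF, and cytoplasmic RNA was sequenced after ribosomal RNA depletion in 4 groups of 3 libraries. Control cells (CC) received the vehicle DMSO for 72 h. Treated cells (TC) received MAPK inhibitors (MAPKi), that is 500 nM of the BRAF inhibitor vemurafenib with 500 nM of the MEK inhibitor cobimetinib, for 72 h. Persister cells (PC) had the same 72 h of MAPKi followed by 2 days without drug, and recovered cells (RC) had it followed by 9 days without drug. All groups shared the same cell line and medium with added glutamine and serum. Control cells were collected at 72 h only, so time in culture and removal of the drug cannot be told apart in PC and RC. The labels give 3 replicates per group and do not say that they came from separate cultures, so the p-values measure the spread between these libraries, which may be technical.

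Glycolysis splits glucose into pyruvate in the cytosol and yields ATP and NADH, and lactate dehydrogenase turns pyruvate into lactate, which leaves the cell with a proton through the monocarboxylate transporters. Pyruvate enters mitochondria instead when pyruvate dehydrogenase is active, and the PDK kinases switch that enzyme off. The pentose phosphate pathway draws on glucose-6-phosphate, its oxidative arm making NADPH and its non-oxidative arm, in which transketolase works, making ribose-5-phosphate. In melanoma with mutant BRAF, signalling through the MAPK pathway is known to drive glucose uptake and glycolysis.

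Total counts per library ran from 37773389 to 55567097, and CPM denotes counts scaled to depth, here with TMM-scaled library sizes. The melanoma genes SOX10 (659 CPM in CC), PMEL and DCT were present, whereas MLANA was at 0.546 CPM in CC. Of 14 melanoma and neural crest genes listed, 9 were higher and 2 lower in TC than in CC, beside 33.2 and 34.7% of all tested genes. Their log2 fold changes in TC ran from -3.89 to 9.95. Of 10 genes known as MAPK pathway output, 9 fell in TC, 9 fell in PC and 2 fell in RC, each against CC. Of all tested genes, 34.7% fell in TC, 35.9% in PC and 19.1% in RC, so the 2 of 10 in RC were close to the share of all genes. Of 13 markers of cell types that the cultures should lack, CDH5 and MYH11 were at 0 in every library and only CD68, LUM, VWF and KRT14 exceeded 1 CPM in any. The summed level of those 13 markers was 156 to 204 CPM in CC, 730 to 1074 CPM in TC, 643 to 786 CPM in PC and 141 to 154 CPM in RC. Without CD68, a macrophage marker that other cells also express in lysosomes, the sum was 29.2 to 38.0 CPM in CC and 8.67 to 10.5 CPM in TC. The part of CD68 in the results below was not tested.

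The genes took a different share of all gene counts in each group, with no overlap between groups. The share was 1.71 to 1.92% in CC, 1.58 to 1.62% in TC, 1.22 to 1.30% in PC and 2.01 to 2.09% in RC. It was thus lowest 2 days after drug removal and highest after 9 days. The share is weighted towards abundant genes, among them GAPDH (mean of 4619 CPM in CC) and ENO1 (2771 CPM), and does not describe each gene. In bulk RNA, fewer cells with a transcript and less of the transcript per cell cannot be told apart.

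**Figure D1:**
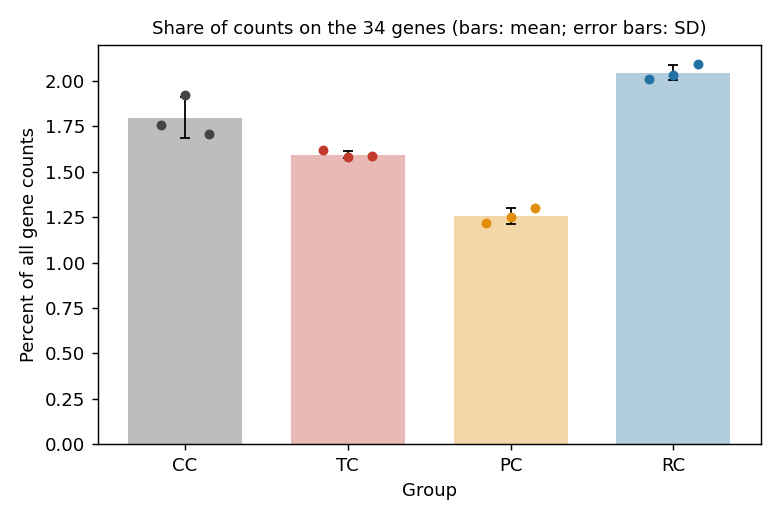
Share of all gene counts that fell on the 34 genes (vertical axis, percent) in the 4 groups, with a point per library, bars for the mean of 3 and error bars for the SD. The 3 PC libraries lie at 1.22 to 1.30% and the 3 RC libraries at 2.01 to 2.09%.

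For 3 members the counts could not be read as levels. LDHA, the main lactate dehydrogenase subunit of many tumours, had 5 to 50 counts per library. ALDOA, the aldolase of muscle and most other tissues, had 19 to 70 counts. SLC16A1, the monocarboxylate transporter MCT1, had 0 to 3 counts and was the 1 member that did not pass the filter on low counts. In the RefSeq annotation ALDOA lies inside a second listed gene, LOC112694756, for 99.9% of its length, and that gene had 21 to 74 counts. Rows with a numbered copy of the name were listed for LDHA (127 to 628 counts), SLC16A1 (53 to 702) and GPI (37 to 193). The part of this sharing of names and positions in the low counts was not tested, and no fold change is given for these 3 genes, although LDHA and ALDOA remain among the 33 tested.

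Against CC, calls among the 33 tested genes went in both directions in TC, and most genes were lower in PC. After 9 days few were beyond 1.5-fold, as was so for all tested genes. At an adjusted p below 0.05 in edgeR's quasi-likelihood test, TC had 11 genes higher and 13 lower, where 33.2% of all 15916 tested genes were higher and 34.7% lower. In PC, 7 were higher (33.2% of all tested genes) and 20 lower (35.9%). In RC, 10 were higher (18.2%) and 5 lower (19.1%). A fit that also used the replicate number as a block added calls for GPI, GAPDH, ALDOC and PDK3 in TC and for PFKM in RC. The median log2 fold change of the 33 genes was -0.11 in TC, -0.47 in PC and -0.07 in RC, beside medians of -0.02, -0.04 and 0.00 over all tested genes.

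A change beyond 1.5-fold was called by edgeR's test against that fold. In TC, 4 genes were higher beyond it (16.1% of all tested genes) and 6 lower (19.3%), both close to the share of all genes. In PC, 2 were higher (17.2%) and 11 lower (19.9%). In RC, 1 was higher (1.35%) and 1 lower (2.52%), so that few were beyond it both among these genes and among all tested genes. TC, PC and RC share their control libraries, so these counts are not independent of each other.

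Of the 33 genes, 21 were lower in PC than in TC (12.5% of all tested genes) and 0 were higher (12.2%), with 0 higher also at an unadjusted p under 0.05 in edgeR and 0 in DESeq2. Beyond 1.5-fold, 4 were lower (1.15%) and 0 higher (2.33%). These 4 were SLC2A3, HK1, PDK4 and ARRDC4, and the count was 2 without replicate 1 of TC or without replicate 1 of PC. From PC to RC, 21 genes were higher (35.7%) and 4 lower (34.2%), and beyond 1.5-fold 14 were higher (20.2%) and 3 lower (18.5%). Both the 21 and the 14 include LDHA, the counts of which could not be read as levels. Among the 31 genes with readable levels, the lowest of the 4 group means was that of PC in 19, CC in 6, RC in 5 and TC in 1. The same count was not made over all tested genes, so it cannot be read as a trait of these genes.

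**Figure D2:**
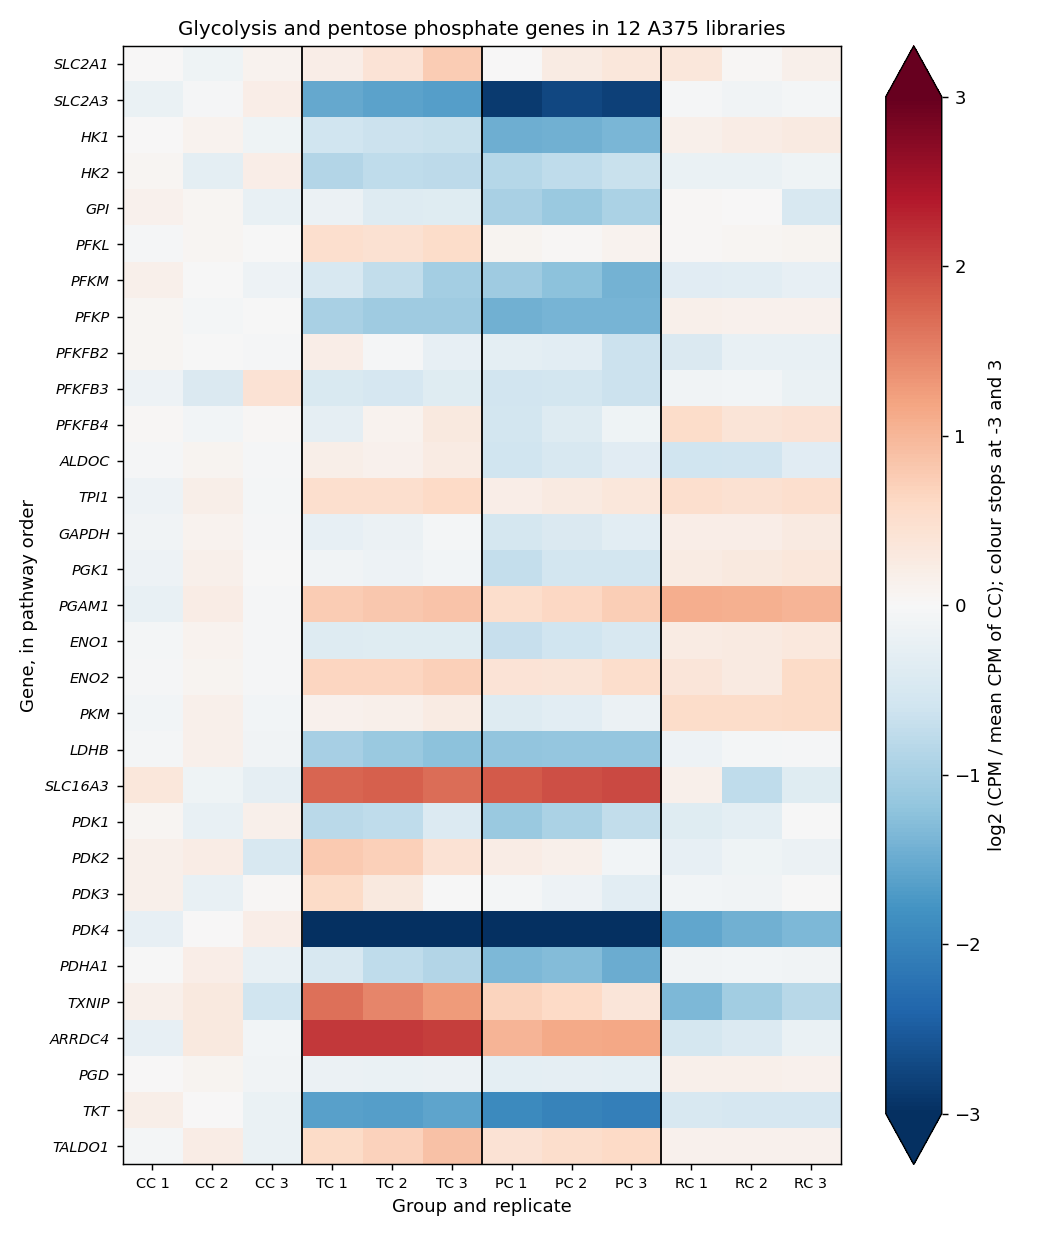
Level of the 31 genes with readable counts in each of the 12 libraries, as log2 of CPM over the CC mean (colour, stopping at -3 and 3), with genes in pathway order (rows) and libraries by group and replicate (columns). SLC2A3, PDK4 and TKT are blue in all TC and PC libraries, and TXNIP and ARRDC4 are red in all TC libraries.

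Of the glucose transporter genes SLC2A3 and SLC2A1, SLC2A3 fell and SLC2A1 did not. SLC2A3 encodes GLUT3, a transporter with high affinity for glucose (hg38 chromosome 12, 7919230 to 8019007, minus strand, in GENCODE). Its level was 103, 116 and 137 CPM in CC, 41.2, 39.0 and 37.5 CPM in TC, 16.3, 17.9 and 17.1 CPM in PC and 116, 110 and 114 CPM in RC. All TC and PC libraries lay below every CC library, and the PC libraries lay below the TC libraries, whereas RC overlapped CC. The log2 fold change of SLC2A3 against CC was -1.60 ± 0.09 (SE; adjusted p = 1.73e-08, edgeR) in TC and -2.79 ± 0.10 (adjusted p = 3.17e-10) in PC, with -0.07 ± 0.09 (adjusted p = 0.597) in RC.

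SLC2A1 encodes GLUT1, the widely expressed basal glucose transporter. Its mean level was 102 ± 8.28 CPM (SD, n = 3) in CC, 141 ± 28.4 CPM in TC, 117 ± 13.5 CPM in PC and 115 ± 11.6 CPM in RC. SLC2A1 rose in TC by 0.47 ± 0.14 on the log2 scale (adjusted p = 0.00812, edgeR), and by 0.31 without replicate 3 of TC (adjusted p = 0.0392). Its adjusted p was 0.211 in PC and 0.324 in RC. Per kilobase of the canonical transcript, SLC2A3 and SLC2A1 stood at 31.0 and 30.1 CPM in CC and at 4.47 and 34.5 CPM in PC.

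Hexokinase traps glucose in the cell as glucose-6-phosphate, and HK1 and HK2 fell under MAPKi. HK1, the constitutive form, was at 275, 295 and 251.7 CPM in CC, 181, 175 and 172 CPM in TC, 99.1, 100.4 and 106 CPM in PC and 306, 318 and 328 CPM in RC. The 4 groups did not overlap, PC being lowest and RC highest. HK1 changed against CC by -0.64 ± 0.07 on the log2 scale in TC (adjusted p = 2.86e-06, edgeR) and by -1.43 ± 0.07 in PC (adjusted p = 3.02e-09). In RC it was 0.21 ± 0.06 (adjusted p = 0.0216), a call lost without replicate 2 of RC (adjusted p = 0.0618) or replicate 3 of RC (adjusted p = 0.0707) and with only the 2 groups fitted (adjusted p = 0.0666).

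HK2, the form known for its induction in tumours, was at 268, 211 and 294 CPM in CC, 140, 152 and 149 CPM in TC, 141, 151 and 163 CPM in PC and 225, 224 and 237 CPM in RC. TC and PC lay below all CC libraries and overlapped each other, and RC lay inside the range of CC. The log2 fold change of HK2 was -0.81 ± 0.10 in TC (adjusted p = 2.10e-05, edgeR), -0.76 ± 0.10 in PC (adjusted p = 3.13e-05) and -0.17 ± 0.10 in RC (adjusted p = 0.216). HK1 thus fell further from TC to PC (-0.79 ± 0.07, adjusted p = 7.12e-06), whereas the HK2 difference was 0.04 ± 0.10 (adjusted p = 0.805).

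GPI, which converts glucose-6-phosphate to fructose-6-phosphate, was at 173, 165 and 135 CPM in CC, 138, 121 and 123 CPM in TC, 80.2, 73.1 and 81.0 CPM in PC and 162, 160 and 112 CPM in RC. PC was separate from all other libraries, and TC and RC each overlapped CC. GPI fell by 1.01 on the log2 scale in PC (SE 0.13, adjusted p = 2.59e-05, edgeR) and was at -0.31 ± 0.13 in TC (adjusted p = 0.0574) and -0.12 ± 0.13 in RC (adjusted p = 0.509).

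Phosphofructokinase commits sugar to glycolysis, and its 3 genes did not move together. PFKP, the platelet-type gene, was at 243, 224 and 230 CPM in CC, 118, 112 and 111 CPM in TC, 85.8, 87.8 and 88.5 CPM in PC and 260, 254 and 254 CPM in RC. All TC and PC libraries of PFKP lay below CC, and all PC libraries lay below TC. PFKP changed by -1.04 ± 0.05 on the log2 scale in TC (adjusted p = 6.77e-09, edgeR), -1.41 ± 0.05 in PC (adjusted p = 6.19e-10) and 0.14 ± 0.05 in RC (adjusted p = 0.0570).

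PFKM, the muscle-type gene, was at 306, 276 and 250 CPM in CC, 199, 166 and 136 CPM in TC, 132, 118 and 104 CPM in PC and 220, 224 and 232 CPM in RC. All libraries of the other 3 groups lay below CC, with PC lowest. PFKM fell by 0.73 on the log2 scale in TC (SE 0.13, adjusted p = 2.78e-04, edgeR) and by 1.24 in PC (SE 0.13, adjusted p = 3.39e-06). It was at -0.30 ± 0.13 in RC (adjusted p = 0.0870).

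PFKL, the liver-type gene, went the other way in TC. Its mean was 138 ± 4.27 CPM in CC, 196 ± 6.06 CPM in TC, 145 ± 2.98 CPM in PC and 143 ± 2.65 CPM in RC. PFKL rose by 0.51 ± 0.05 on the log2 scale in TC (adjusted p = 2.48e-06, edgeR) and fell back by 0.43 from TC to PC (SE 0.05, adjusted p = 9.67e-05). Per kilobase of canonical transcript, PFKL had the lowest of the 3 levels in CC (47.4 CPM, beside 88.6 for PFKP and 89.7 for PFKM) and the highest in TC (67.4 CPM, beside 43.2 for PFKP and 54.0 for PFKM). The order in TC depends on the length used. Scaled to all annotated exon bases (8926 for PFKL and 7246 for PFKM), PFKL did not pass PFKM in TC.

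The PFKFB genes encode enzymes that make and break fructose-2,6-bisphosphate, the main activator of phosphofructokinase, and none of them passed 1.5-fold against CC. PFKFB2 fell by 0.40 on the log2 scale in PC (SE 0.12, adjusted p = 0.00926, edgeR), and was at -0.02 ± 0.12 in TC and -0.29 ± 0.12 in RC (adjusted p = 0.887 and 0.0686). PFKFB3 was at -0.44 ± 0.16 in TC (adjusted p = 0.0290), a call lost without replicate 3 of CC (log2 fold change -0.16, adjusted p = 0.107), replicate 1 of TC or replicate 2 of TC (adjusted p = 0.0677 and 0.0840) and with only the 2 groups fitted (0.0916). It fell by 0.59 in PC (SE 0.16, adjusted p = 0.00658), and by 0.30 without replicate 3 of CC, the PFKFB3 level of which was 123 CPM beside 82.0 and 66.6 CPM in the other CC libraries. PFKFB4 was at -0.35 ± 0.13 in PC (adjusted p = 0.0337), a call lost without any 1 of replicates 1 and 3 of CC and 1 and 2 of PC (adjusted p = 0.0784 to 0.139) and with RLE size factors (0.0516). In RC it was at 0.45 ± 0.13 (adjusted p = 0.0176), lost without replicate 1 of RC (adjusted p = 0.0583). The span of PFKFB2 overlaps that of YOD1 (960 to 3284 counts per library) over 19.9% of its length. That of PFKFB4 overlaps UCN2 (1653 to 13708 counts) over 3.12%, and the part of these overlaps was not tested.

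**Figure D3:**
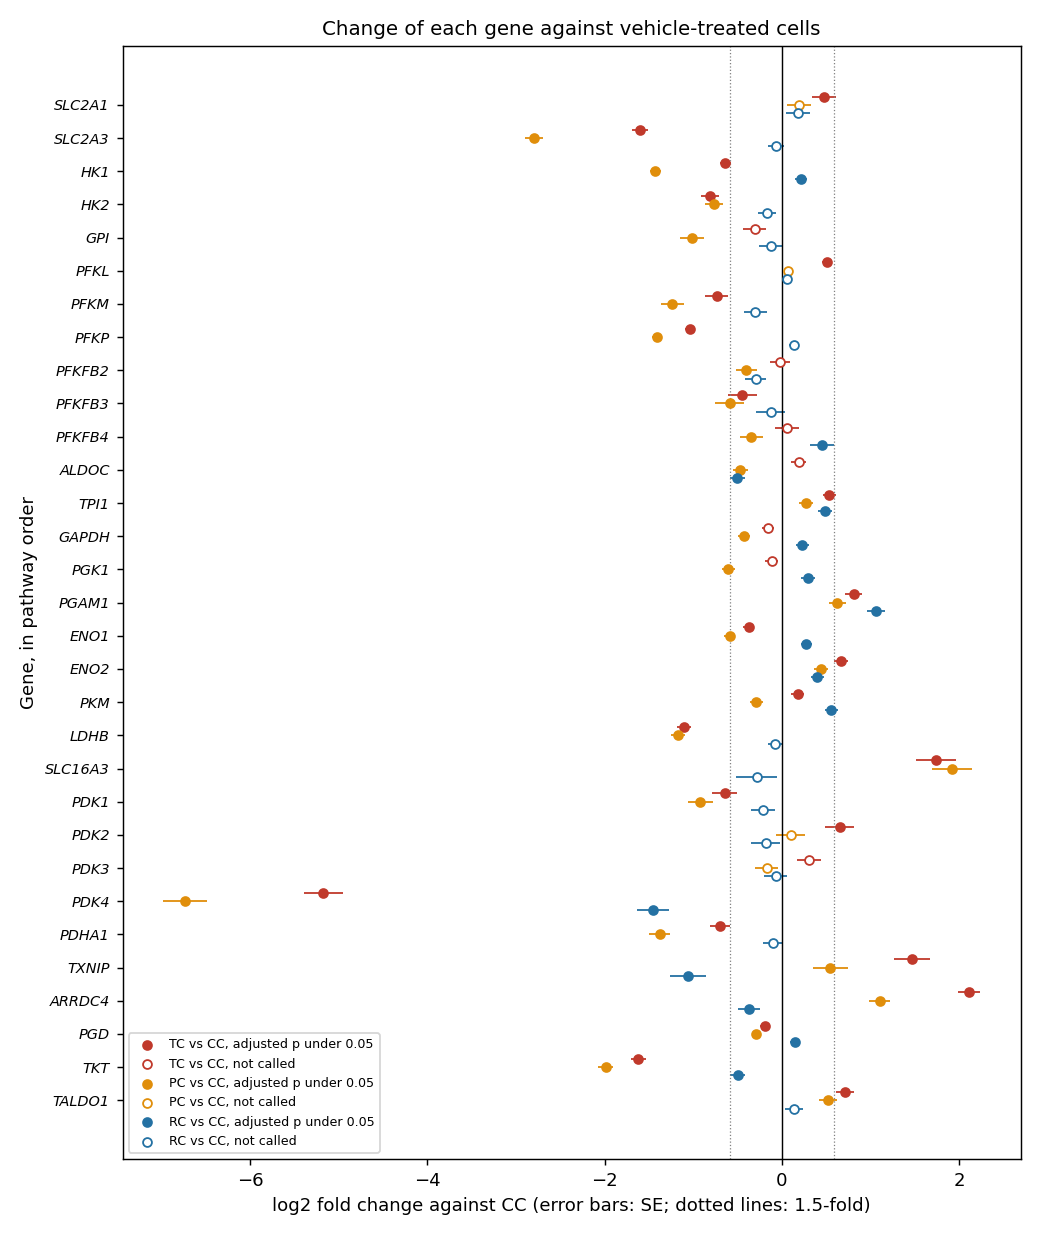
Log2 fold change against CC (horizontal axis, error bars SE) of the 31 genes with readable counts, in pathway order, for TC, PC and RC; filled points passed an adjusted p under 0.05 and dotted lines mark 1.5-fold. PDK4 lies farthest to the left at -6.73 in PC and ARRDC4 farthest to the right at 2.11 in TC.

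In the later steps of glycolysis, where triose phosphates are turned into pyruvate, some genes fell and others rose. GAPDH is the enzyme that makes NADH in this pathway, and the study used the gene to scale some of its RT-qPCR. It was at 4326, 5001 and 4530 CPM in CC, 3923, 4091 and 4426 CPM in TC, 3181, 3432 and 3691 CPM in PC and 5336, 5333 and 5607 CPM in RC. PC lay below and RC above every CC library, and TC overlapped CC. GAPDH was at -0.16 ± 0.07 on the log2 scale in TC (adjusted p = 0.0718, edgeR) and fell by 0.43 in PC (SE 0.07, adjusted p = 1.84e-04). In RC it was at 0.23 ± 0.07 (adjusted p = 0.0238), a call lost without replicate 1 of CC (adjusted p = 0.0973), replicate 3 of CC (0.0551) or replicate 3 of RC (0.0695), and with a filter at a summed count of at least 2 (0.137). From PC to RC it rose by 0.66 ± 0.07 (adjusted p = 4.48e-06).

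PGAM1, the phosphoglycerate mutase of most tissues (hg38 chromosome 10, 97426191 to 97433444, plus strand), was the 1 gene higher beyond 1.5-fold in RC. It was at 242, 333 and 277 CPM in CC, 482, 497 and 516 CPM in TC, 407, 437 and 471 CPM in PC and 605, 598 and 579 CPM in RC. Every library of the other 3 groups exceeded all CC libraries, and RC exceeded all others. PGAM1 rose by 0.81 ± 0.10 on the log2 scale in TC (adjusted p = 1.34e-05, edgeR), 0.63 ± 0.10 in PC (adjusted p = 1.10e-04) and 1.06 ± 0.10 in RC (adjusted p = 2.75e-05). Near-identical copies of PGAM1 exist in the genome, and how reads that match several places were counted is not given in the sources used here, so its level is uncertain.

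TPI1, which interconverts the triose phosphates, also rose in the 3 comparisons with CC, by 0.54 ± 0.08 in TC, 0.27 ± 0.08 in PC and 0.49 ± 0.08 in RC on the log2 scale (adjusted p = 5.99e-05, 0.00799 and 5.83e-04, edgeR). Its pseudogene row TPI1P2 had 74 to 330 counts per library. PGK1, which makes the first ATP of the pathway, fell by 0.60 in PC (SE 0.08, adjusted p = 1.96e-05) and rose by 0.29 ± 0.08 in RC (adjusted p = 0.0106), with -0.11 ± 0.08 in TC (adjusted p = 0.207). ALDOC, the brain-type aldolase, fell by 0.47 in PC and 0.50 in RC (SE 0.08 in both, adjusted p = 3.00e-04 and 7.27e-04), and was at 0.19 ± 0.08 in TC (adjusted p = 0.0613).

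The enolase genes diverged under MAPKi. ENO1, the common form, fell by 0.37 in TC and by 0.59 in PC on the log2 scale (SE 0.06 in both, adjusted p = 1.90e-04 and 3.73e-06, edgeR) and rose by 0.28 ± 0.06 in RC (adjusted p = 0.00466). ENO2, the neuronal form, rose by 0.67 ± 0.08 in TC, 0.44 ± 0.08 in PC and 0.40 ± 0.08 in RC (adjusted p = 8.83e-06, 2.54e-04 and 0.00181). Per kilobase of canonical transcript ENO1 stayed far above ENO2, at 1556 and 21.3 CPM in CC and 1202 and 33.9 CPM in TC.

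PKM, the pyruvate kinase gene, fell by 0.29 in PC (SE 0.07, adjusted p = 0.00348, edgeR) and rose by 0.56 ± 0.07 in RC (adjusted p = 1.55e-04), its level being 1846 ± 171 CPM in CC, 1512 ± 105 CPM in PC and 2718 ± 26.6 CPM in RC. In TC its log2 fold change was 0.18 ± 0.07 (adjusted p = 0.0453), a call lost without replicate 1 or 3 of CC, 2 or 3 of TC, 2 of PC, or 1 or 2 of RC (adjusted p = 0.0543 to 0.154), with a summed count of at least 2 (0.122) and with only the 2 groups fitted (0.0988). Gene counts do not separate its PKM1 and PKM2 splice forms.

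At the lactate step, LDHB, the subunit that favours turning lactate into pyruvate, fell with treatment and returned. It was at 1648, 1897 and 1588 CPM in CC, 863, 795 and 732 CPM in TC, 757, 768 and 761 CPM in PC and 1543, 1650 and 1670 CPM in RC. All TC and PC libraries lay below the lowest CC library, and RC overlapped CC. LDHB changed by -1.10 ± 0.08 on the log2 scale in TC (adjusted p = 1.00e-07, edgeR), -1.17 ± 0.08 in PC (adjusted p = 5.86e-08) and -0.08 ± 0.08 in RC (adjusted p = 0.455).

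SLC16A3 encodes MCT4, the transporter known for lactate export, and was low throughout. It was at 2.07, 1.49 and 1.35 CPM in CC, 5.50, 5.70 and 5.28 CPM in TC, 5.84, 6.26 and 6.48 CPM in PC and 1.82, 0.962 and 1.27 CPM in RC. TC and PC lay above all CC and RC libraries. SLC16A3 rose by 1.74 ± 0.23 on the log2 scale in TC (adjusted p = 2.19e-05, edgeR) and by 1.92 ± 0.23 in PC (adjusted p = 9.27e-06), and was at -0.29 ± 0.23 in RC (adjusted p = 0.351). Its annotated span overlaps that of CSNK1D, which had 5213 to 12799 counts per library, over 4.82% of its length, and the part of that overlap was not tested.

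PDK4, the kinase of pyruvate dehydrogenase known for its induction on fasting, changed more than any other of the 33 genes in TC and in PC (hg38 chromosome 7, 95583499 to 95596516, minus strand). It was at 204, 245 and 275 CPM in CC, 8.87, 5.68 and 5.65 CPM in TC, 2.67, 2.72 and 1.43 CPM in PC and 81.9, 88.4 and 94.3 CPM in RC. The 4 groups did not overlap, and RC stayed below CC. The log2 fold change of PDK4 was -5.17 ± 0.22 in TC (adjusted p = 1.55e-09, edgeR), -6.73 ± 0.25 in PC (adjusted p = 4.78e-10) and -1.45 ± 0.18 in RC (adjusted p = 1.33e-04), and 5.28 ± 0.24 from PC to RC (adjusted p = 2.10e-09). It was the 1 gene lower beyond 1.5-fold in RC, where leaving out replicate 3 of CC gave 2 such genes.

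PDK1, the form known as a target of hypoxia inducible factor, was at 55.0, 45.3 and 58.3 CPM in CC, 30.1, 31.4 and 39.8 CPM in TC, 24.6, 27.5 and 31.9 CPM in PC and 41.4, 43.3 and 52.2 CPM in RC. TC and PC lay below CC and overlapped each other, and RC overlapped CC. PDK1 fell by 0.64 in TC and 0.92 in PC on the log2 scale (SE 0.14 in both, adjusted p = 0.00135 and 8.78e-05, edgeR) and was at -0.21 ± 0.14 in RC (adjusted p = 0.252). PDK2, the widely expressed form, rose by 0.65 ± 0.16 in TC (adjusted p = 0.00335), whereas PDK3 was at 0.31 ± 0.13 in TC (adjusted p = 0.0594). In PC and RC neither passed the test against CC.

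The make-up of the kinase transcripts differed between groups. Per kilobase of canonical transcript, PDK4 made up 50.5 to 60.4% of the 4 PDK levels in CC, 2.49 to 3.25% in TC, 0.969 to 1.65% in PC and 33.1 to 34.8% in RC. Per kilobase of all annotated exon bases, which lowers PDK3 most, the PDK4 share was 78.2 to 84.8% in CC, 8.51 to 11.6% in TC, 3.36 to 5.74% in PC and 64.6 to 65.5% in RC. The groups kept the same order under both lengths without overlap.

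PDHA1, the E1 alpha subunit that the PDK kinases phosphorylate, was at 202, 236 and 175 CPM in CC, 148, 121 and 111 CPM in TC, 80.5, 82.3 and 73.2 CPM in PC and 189, 192 and 190 CPM in RC. TC lay below CC and PC below TC, and RC overlapped CC. PDHA1 fell by 0.69 on the log2 scale in TC (SE 0.12, adjusted p = 1.81e-04, edgeR) and by 1.38 in PC (SE 0.12, adjusted p = 5.33e-07), and was at -0.10 ± 0.11 in RC (adjusted p = 0.518). The kinase PDK4 and its substrate PDHA1 were thus both lower in TC and PC.

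**Figure D4:**
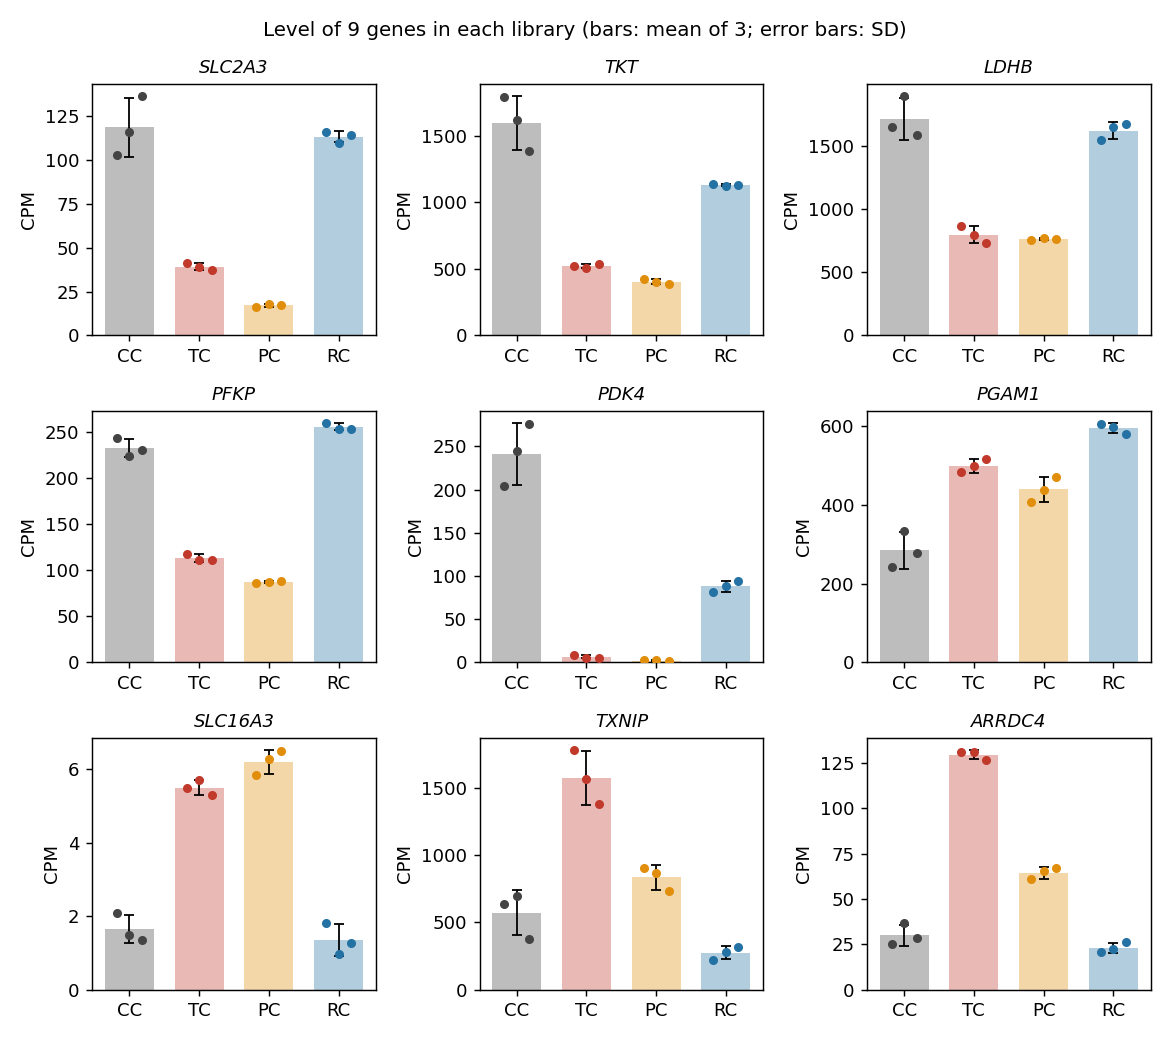
Level in CPM (vertical axes, each from 0) of 9 genes in the 4 groups, with a point per library, bars for the mean of 3 and error bars for the SD. TXNIP and ARRDC4 are highest in TC, SLC16A3 is highest in TC and PC, and PGAM1 is highest in RC at 579 to 605 CPM.

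TXNIP and ARRDC4 encode arrestin-like proteins that lower glucose uptake, and both are known targets of the glucose-sensing factor pair of MLXIP or MLXIPL with MLX, which binds paired E-box-like sites in their promoters. The stretches below, from RefSeq promoters on GRCh38.p14, are shown because these genes had 2 of the 3 largest rises in TC. The TXNIP stretch is chr1:145996620-145996719 on the minus strand (140 to 41 bases before the start site), with a GTAAACA forkhead match and the pair of CACGNG copies 5 bases apart in capitals. The ARRDC4 stretch is chr15:97960463-97960562 on the plus strand (240 to 141 bases before the start site), with the E-box CACGTG in capitals.
TXNIP: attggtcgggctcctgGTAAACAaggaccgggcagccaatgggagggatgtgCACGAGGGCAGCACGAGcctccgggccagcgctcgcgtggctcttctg
ARRDC4: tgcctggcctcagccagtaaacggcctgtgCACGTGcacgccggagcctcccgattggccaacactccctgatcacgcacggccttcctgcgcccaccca
Both strands were searched. Of 35116 promoter windows, 20 (0.0570%) held the pair, 1202 (3.42%) held GTAAACA and 2548 (7.26%) held CACGTG. Among the 31 members with a promoter in the RefSeq set, TXNIP was the 1 with the pair and the 1 with GTAAACA, and CACGTG was in 8 of the 60 windows of members (ALDOA, ALDOC, ARRDC4, GAPDH, HK2, LDHA, PDK2 and PFKFB3). The hypoxia response cores ACGTG and GCGTG, the former of which lies inside CACGTG, were in 23 and 25 of the 60 promoter windows of the members, beside 21.4 and 36.5% of all windows. None of these letters was in the PDK4 promoter window.

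TXNIP was at 639, 694 and 380 CPM in CC, 1783, 1566 and 1380 CPM in TC, 904, 869 and 732 CPM in PC and 224, 278 and 321 CPM in RC. The 4 groups did not overlap, in the order TC, PC, CC and RC, and replicate 3 of CC was low within its group. TXNIP rose by 1.47 ± 0.20 on the log2 scale in TC (adjusted p = 3.98e-05, edgeR) and fell by 1.06 in RC (SE 0.20, adjusted p = 0.00170). In PC it was at 0.55 ± 0.20 (adjusted p = 0.0272), a call lost without replicate 3 of CC (log2 fold change 0.33, adjusted p = 0.0709), replicate 1 of PC (adjusted p = 0.0779) or replicate 2 of PC (adjusted p = 0.0651).

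ARRDC4 was at 25.2, 36.5 and 28.3 CPM in CC, 131, 131 and 127 CPM in TC, 60.9, 65.6 and 67.1 CPM in PC and 20.9, 22.5 and 26.2 CPM in RC. TC and PC lay above CC and did not overlap each other, and RC overlapped CC. ARRDC4 rose by 2.11 ± 0.12 on the log2 scale in TC (adjusted p = 1.89e-08, edgeR) and 1.10 ± 0.12 in PC (adjusted p = 4.59e-06). In RC it was at -0.37 ± 0.12 (adjusted p = 0.0305), a call lost without replicate 2 of CC (log2 fold change -0.20, adjusted p = 0.0976), replicate 1 of RC (adjusted p = 0.124) or replicate 2 of RC (adjusted p = 0.1002) and with only the 2 groups fitted (adjusted p = 0.102).

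In the pentose phosphate pathway the gene for transketolase fell and that for transaldolase rose, though both work in the non-oxidative arm. TKT, transketolase (hg38 chromosome 3, 53224712 to 53256052, minus strand), was at 1793, 1617 and 1383 CPM in CC, 520, 505 and 537 CPM in TC, 424, 400 and 386 CPM in PC and 1139, 1121 and 1133 CPM in RC. The 4 groups did not overlap, and all RC libraries remained below CC. The log2 fold change of TKT was -1.62 ± 0.08 in TC (adjusted p = 6.68e-09, edgeR), -1.99 ± 0.08 in PC (adjusted p = 1.39e-09) and -0.50 ± 0.08 in RC (adjusted p = 6.28e-04).

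TALDO1, transaldolase, was at 147 ± 22.0 CPM in CC, 241 ± 26.2 CPM in TC, 212 ± 12.4 CPM in PC and 162 ± 0.346 CPM in RC. It rose by 0.72 ± 0.10 on the log2 scale in TC and 0.53 ± 0.10 in PC (adjusted p = 5.79e-05 and 6.40e-04, edgeR), and was at 0.14 ± 0.10 in RC (adjusted p = 0.320). PGD, an NADPH-making enzyme of the oxidative arm, fell by 0.29 in PC (SE 0.05, adjusted p = 4.71e-04) and by 0.19 in TC (SE 0.05, adjusted p = 0.00820, not called when only TC and CC were fitted, adjusted p = 0.0853). Its RC value of 0.15 ± 0.05 (adjusted p = 0.0437) was lost without any 1 of replicates 1 and 3 of CC, 2 and 3 of TC, 1 to 3 of PC or 1 to 3 of RC (adjusted p = 0.0537 to 0.109), with only the 2 groups fitted (0.1304) and with a summed count of at least 2 (0.0760).

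The ratio of 2 genes that serve the same step does not depend on library scaling. It was compared within each library for 10 pairs and 3 comparisons with CC by an exact two-sided permutation test, in which 3 libraries against 3 cannot give a p below 0.1. The lowest adjusted p over the 30 tests was 0.176, so that none could pass 0.05 and the ratios are given as a description.

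The largest shift was in PDK4 to PDK2, the mean log2 ratio of which was 3.50 ± 0.56 (SD, n = 3) in CC, -2.36 ± 0.28 in TC, -3.40 ± 0.37 in PC and 2.21 ± 0.09 in RC. SLC2A3 to SLC2A1 went from 0.21 ± 0.17 in CC to -1.83 ± 0.35 in TC and -2.77 ± 0.13 in PC, and was -0.02 ± 0.11 in RC, which overlapped CC. PFKP to PFKL shifted by -1.54 in TC and -1.48 in PC, and PFKM to PFKL by -1.25 and -1.31. ENO2 to ENO1 shifted by 1.04 in TC and 1.03 in PC, PDK1 to PDK2 by -1.32 and -1.04. HK2 to HK1 lay above CC in PC, by 0.67, and overlapped CC in TC and RC. TXNIP to ARRDC4 overlapped CC in TC and PC, with shifts of -0.62 and -0.53.

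**Figure D5:**
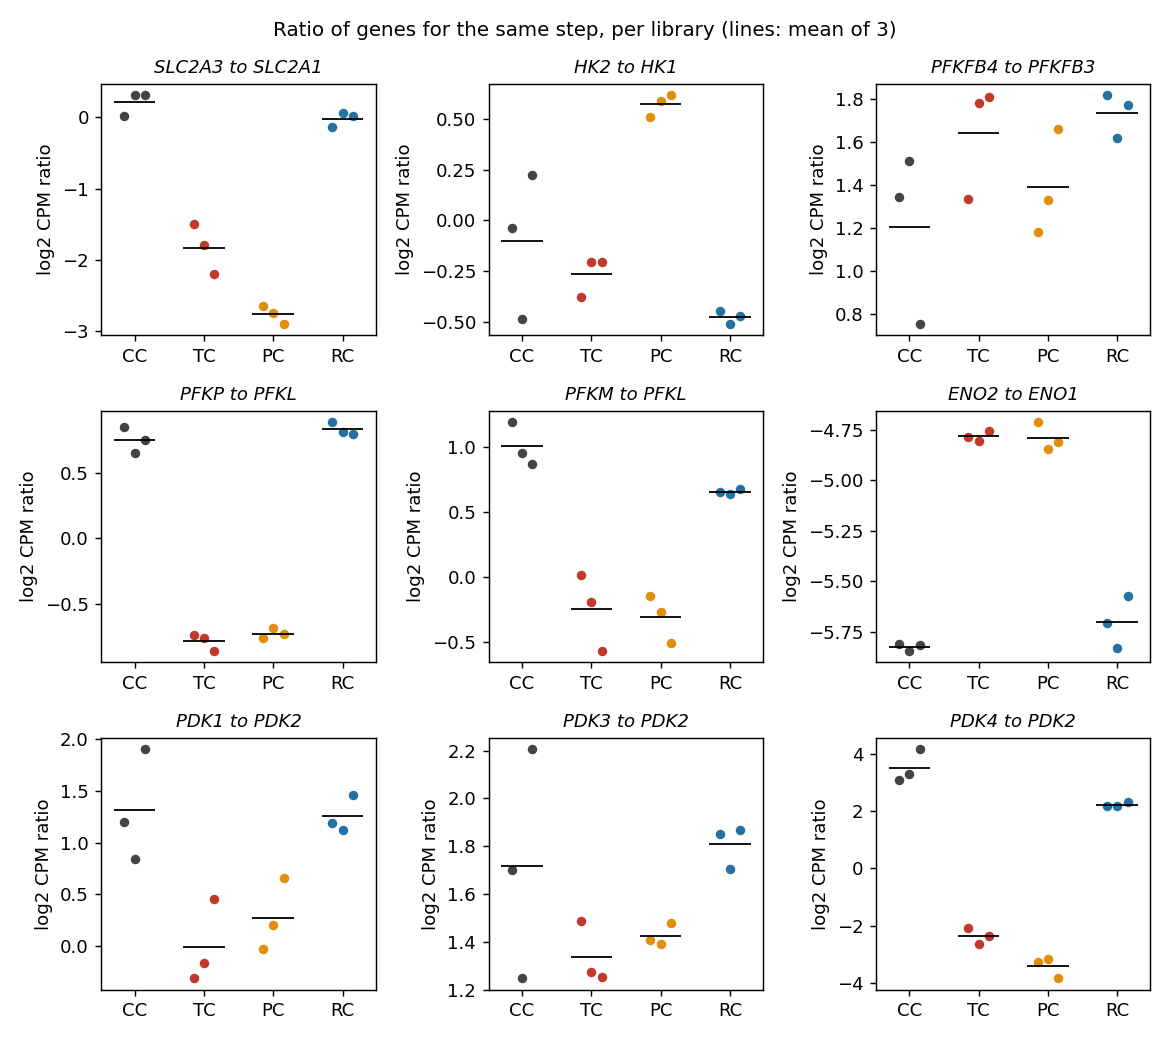
Log2 ratio of CPM between 2 genes of the same step (vertical axes) in each library of the 4 groups, with lines at the mean of 3. In TC and PC the ratios of SLC2A3 to SLC2A1, PFKP to PFKL, PFKM to PFKL and PDK4 to PDK2 lie below those of all CC libraries, and ENO2 to ENO1 lies above.

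Further genes of the same pathways were taken from a list of 53, of which 39 were tested. Of these, 12 were higher and 15 lower in TC, 11 higher and 17 lower in PC, and 8 higher and 7 lower in RC, with median log2 fold changes of -0.06, -0.24 and 0.01. Over all tested genes the shares were 33.2% higher and 34.7% lower in TC, 33.2% higher and 35.9% lower in PC, and 18.2% higher and 19.1% lower in RC. PGLS, a lactonase of the oxidative arm of the pentose phosphate pathway, rose by 0.31 ± 0.07 in TC and 0.38 ± 0.07 in PC (adjusted p = 0.00142 and 3.11e-04, edgeR). H6PD, which makes NADPH in the endoplasmic reticulum, rose by 0.96 ± 0.12 and 0.81 ± 0.12 (adjusted p = 1.68e-05 and 6.25e-05). In the non-oxidative arm, RPIA, ribose-5-phosphate isomerase, fell by 1.01 in TC and 0.72 in PC (SE 0.07 in both, adjusted p = 1.47e-07 and 2.66e-06), and the epimerase gene RPE fell by 0.50 and 0.38.

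At the top of glycolysis, HKDC1, a hexokinase-like gene, was at 0.486 CPM in CC, 7.80 CPM in TC, 15.4 CPM in PC and 1.12 CPM in RC, and rose by 4.00 ± 0.24 in TC and 4.98 ± 0.25 in PC on the log2 scale (edgeR, adjusted p = 2.44e-08 and 4.93e-09). ADPGK, a glucokinase that uses ADP, rose by 1.39 ± 0.11 and 1.81 ± 0.11 in TC and PC. PGM1, which links glycogen to glucose-6-phosphate, rose by 0.83 ± 0.07 and 1.17 ± 0.07. Of the glycerol-3-phosphate dehydrogenases, which move NADH electrons to mitochondria, GPD1L fell by 2.03 and 2.52 and GPD2 fell by 1.02 and 1.26 in TC and PC.

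The pyruvate dehydrogenase genes beyond PDHA1 fell in part. DLAT, PDHX and DLD fell by 1.08, 1.05 and 0.81 on the log2 scale in PC, whereas PDHB was at -0.19 ± 0.09 (adjusted p = 0.0784, edgeR). Of the phosphatases that reverse the action of the PDK kinases, PDP2 fell by 1.46 in TC and 1.67 in PC, while PDP1 rose by 0.89 ± 0.08 and 0.52 ± 0.08. The regulatory subunit PDPR fell by 0.83 and 1.33.

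Among 28 genes for regulators of these pathways 25 were tested, with 11 higher and 4 lower in TC, 9 higher and 8 lower in PC and 7 higher and 5 lower in RC, and median log2 fold changes of 0.19, 0.12 and 0.05, beside 33.2 and 34.7%, 33.2 and 35.9%, and 18.2 and 19.1% of all tested genes. MYC, a transcription factor known to act on many glycolysis genes, was at 59.1 CPM in CC, 4.48 CPM in TC, 6.32 CPM in PC and 41.9 CPM in RC, and fell by 3.71 in TC and 3.23 in PC (SE 0.15 and 0.14, adjusted p = 8.81e-10 and 2.07e-09, edgeR). MLXIP, of the glucose-sensing pair named above, rose by 1.14 ± 0.08 and 1.20 ± 0.08 (adjusted p = 1.38e-07 and 7.86e-08), and its partner MLX was at -0.01 ± 0.09 and 0.02 ± 0.09. MLXIPL had 14 to 28 counts in CC, 4 to 5 in TC, 0 to 1 in PC and 0 to 2 in RC, and did not pass the filter on low counts. HIF1A was at 0.15 ± 0.08 in TC and -0.10 ± 0.08 in PC (adjusted p = 0.107 and 0.253). PPARGC1A, a coactivator for mitochondrial genes, fell by 1.95 in PC (SE 0.23, adjusted p = 9.85e-06).

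Of 23 known targets of hypoxia inducible factor outside glycolysis 21 were tested. In TC 10 were higher and 6 lower, in PC 9 and 7, and in RC 7 and 2, with median log2 fold changes of 0.22, 0.20 and 0.00. The angiogenic factor VEGFA rose by 1.30 ± 0.27 in TC and the mitophagy receptor BNIP3L by 1.30 ± 0.07, whereas STC2, a secreted glycoprotein, fell by 3.81 and ADM, a vasodilator peptide, fell by 1.17 (edgeR, adjusted p = 9.16e-04, 5.79e-09, 3.67e-07 and 0.00637). These counts are to be read against the shares of all tested genes given above (33.2% higher and 34.7% lower in TC).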

How the data were processed

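The authors trimmed paired reads with fastp 0.20.1, aligned them to GRCh38.p13 with HISAT2 2.2.1, counted reads on exons with HTSeq 0.13.5 and deposited the counts as 1 matrix of 44659 genes by 12 libraries; strandedness and the treatment of reads that match several places are not given in the sources used here. Genes with a mean scaled count of at least 10 were tested (15916 genes) with edgeR 4.0.16 (R 4.3.3; TMM, quasi-likelihood test, Benjamini-Hochberg over all tested genes, adjusted p under 0.05; its test against 1.5-fold at adjusted p at most 0.05), with 1 mean per group and all 12 libraries in the fit. The code was tested on simulated data. The precision of a level rests on 3 libraries and on 37773389 to 55567097 counts. Libraries of a group all differed beyond sampling noise.

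The genes, the pathway and marker lists and the tests were chosen with earlier results of these data known. Values in every library and full statistics are given for members called beyond 1.5-fold against CC and for GAPDH; the others are given by summary, range or the values in a sentence. Promoters are RefSeq windows of 250 bases before to 50 after a start site, and lengths, positions and exons are GENCODE v44 on hg38, whereas counting used NCBI's annotation. In GENCODE, the share of exon bases that also belong to another gene was highest for ALDOA (54.2%), PDK2 (38.6%), LDHB (33.4%), PDHA1 (19.3%) and GAPDH (17.6%). The part of this sharing in their levels was not tested. Alternatives were RLE size factors, library totals, a summed count of at least 2, DESeq2 1.42.0, the replicate number as a block, the compared groups alone, pseudogene rows added, and each library left out. Adding the numbered copies to their gene was chosen after seeing the data. Same-numbered libraries were checked for shared deviations.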

Additional observations from a re-analysis of the deposited data

How the results depend on the processing

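Of 111 called fold changes, 91 stayed called under all 20 alternatives, and none of the 111 changed sign. Of the uncalled fold changes against CC, 11 gained a call in some alternative. DESeq2 called GPI, ALDOC and PDK3 in TC and PFKP in RC (adjusted p = 0.0437, 0.0421, 0.0331 and 0.0134). The number of members lower beyond 1.5-fold from TC to PC was 4, and ranged from 2 to 4 with a library left out. In RC against CC, 1 was higher beyond 1.5-fold and 2 with the numbered copies added, the added gene being LDHA; 1 was lower, and 1 to 2 with a library left out. Other member counts stayed within 1.5 times, that of genes lower from TC to PC ranging from 14 to 23. Changes of sign were confined to uncalled values with a library left out, and the cause was not tested. Over the libraries left out, the log2 fold change in RC ran from -0.16 to 0.054 for SLC2A3, -0.21 to 0.039 for GPI, -0.31 to 0.16 for PFKFB3, -0.12 to 0.0025 for LDHB, -0.17 to 0.011 for PDK3 and -0.20 to 0.014 for PDHA1. It ran from -0.13 to 0.088 for PFKFB2 in TC, where the value was 0.0035 without replicate 1 of CC, from -0.066 to 0.21 for PFKFB4 in TC and from -0.080 to 0.23 for PDK2 in PC. The shift of the log2 ratio ran from -0.35 to 8.3e-04 for HK2 to HK1 in TC, from -0.036 to 0.34 for PFKFB4 to PFKFB3 in PC, from -0.30 to 0.24 for PDK1 to PDK2 in RC and from -0.14 to 0.33 for PDK3 to PDK2 in RC. No gene of the ratio pairs had a pseudogene row. Correlations of same-numbered deviations ran from -0.05 to 0.20, and those below 0 were all in pairs of groups with RC. Among CC, TC and PC they ran from 0.007 to 0.20. Each CC library correlated best with its own number in TC and in PC, and each TC library with its own number in PC. Whether the replicate numbers pair the libraries of these groups was not tested, and the main fit does not use them. With the replicate number as a block, TC had 13 members higher and 15 lower, PC 7 and 20, and RC 10 and 6. The block added calls for GPI, GAPDH, ALDOC and PDK3 in TC and PFKM in RC (adjusted p = 0.0324, 0.0407, 0.0410, 0.0418 and 0.0383) and changed no other call of a named gene. SLC16A3 lay at a few CPM.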
